A study of Mus musculus with 7 samples.

Results

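The 41 genes described here are the interferon receptors, the transcription factors that relay or tune interferon signals, and a set of interferon-stimulated effector genes. The effector genes lie outside the OAS, GBP/IRG and IFITM families, except Ifi47, an immunity-related GTPase (IRG). All 41 genes were chosen by gene symbol, and each symbol matched 1 row of a count table of 51138 genes. The 11 regulators are the receptor chains Ifnar1, Ifnar2, Ifngr1 and Ifngr2 and the transcription factors Stat2, Irf1, Irf2, Irf3, Irf7, Irf8 and Irf9. The other 30 genes, called effectors here, include sensors of foreign nucleic acid, ISG15 and its enzymes, RNA-binding and RNA-cutting proteins, antiviral enzymes and membrane proteins, and poly(ADP-ribose) polymerases. All 41 had enough reads to be tested, among 15954 genes tested in all.

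The FP group had 4 samples of regulatory T cells (Tregs), which hold immune responses in check, from spleens of C57/BL6 mice taken 72 h after an injection of 20 ug of FP, a fusion of interleukin-2 with CD25, the alpha chain of its receptor. The PBS group had 3 samples taken at the same time after 100 uL of PBS. Mice of both groups carried a red fluorescent reporter of Foxp3, the transcription factor that defines Tregs, and the cells were sorted. The age and sex of the mice are not given in the sources used here, and the labels do not say whether each replicate came from its own mouse, so p-values here speak only of the variation among the 7 samples. Total RNA with ribosomal RNA removed was sequenced, and the 7 libraries held 9956509 to 13429878 counts each. A count of 0 allows up to 3 counts, or 0.214 to 0.322 CPM (counts per library size, the size adjusted for composition by the trimmed mean of M-values, TMM) in these libraries, a floor for counting error only.

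The libraries carried the markers of Tregs. Foxp3 averaged 539 ± 52.8 CPM in FP samples (SD, n = 4) and 489.9 ± 7.23 CPM in PBS samples (SD, n = 3), and the difference did not pass. Of 8 T cell and Treg markers 4 were higher after FP, by 1.69 for Il2ra, 0.97 for Ctla4, 0.54 for Ikzf2 and 0.48 for Cd3d on the log2 scale, and none was lower. Their summed level was 5450 to 6436 CPM in FP libraries, against 3537 to 3980 CPM in PBS libraries. Most of that difference came from Il2ra, with means of 1934 CPM in FP samples and 600 CPM in PBS samples. Ikzf2 came next, with means of 1597 and 1097 CPM in the same order. Cd3e, Cd3g, Cd4 and Foxp3 did not pass. The part of the difference between the sums in the results was not tested. Over all genes tested, 21.0% were higher and 18.5% were lower after FP. All 15 markers of macrophages and monocytes were lower after FP. Their summed level was 23.9 to 127 CPM in FP libraries, against 676 to 1667 CPM in PBS libraries, and no marker of that list was at 0 throughout a group. In bulk samples such as these, fewer cells of a type and less RNA per cell cannot be told apart.

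Type I interferons act through a receptor made of Ifnar1 and Ifnar2, and type II interferon through one made of Ifngr1 and Ifngr2. Kinases bound to these receptors activate STAT proteins. Stat2 and Irf9 act in a complex that binds the interferon-stimulated response element (ISRE) of its target genes, whereas STAT dimers bind the gamma-activated sequence (GAS). The targets include most of the effectors described here, which limit viruses by sensing or degrading RNA, halting translation or trapping particles, and in Tregs interferon signals are known to alter cell number and suppressive function during infection and autoimmunity.

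Promoter windows of the members were searched for these elements. RefSeq windows on GRCm38.p6, from 250 bases before the annotated start to 50 after it, were found for 33 of the 41 genes, with 42 windows in all. The ISRE core searched was GAAA, any 2 bases and GAAA again; the extended ISRE was that core followed by CT, and the GAS core was TTCNNNGAA. Both strands were searched. An ISRE core was found in 35.7% of 28 effector windows, in 14.3% of 14 regulator windows and in 3.44% of all 32851 windows. The extended ISRE was in 21.4% of effector windows, in 0 of 14 regulator windows and in 0.271% of all windows. A GAS core was in 21.4% of effector windows, in 35.7% of regulator windows and in 8.30% of all windows. These matches describe the letters alone. For 33 of the 42 windows the bases just after the start were found in an annotated transcript of the gene.

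The stretches printed run from base -160 to base -41, counting the annotated start as 0, and were chosen to show the effectors with the highest log2 fold changes that had a window with an ISRE, with Ifit2, a relative of Ifit1 and Ifit3 that did not pass the test, and Irf1 as a regulator with a GAS core. Each is given 5′ to 3′ on the strand of the gene, with matches on either strand in capitals. In order they lie at chr4:156200859-156200978 (minus strand), chr19:34640729-34640848 (plus), chr19:34583369-34583488 (plus), chr8:71537513-71537632 (minus), chr12:26456493-26456612 (minus), chr19:34550534-34550653 (plus) and chr11:53769854-53769973 (plus).
Isg15: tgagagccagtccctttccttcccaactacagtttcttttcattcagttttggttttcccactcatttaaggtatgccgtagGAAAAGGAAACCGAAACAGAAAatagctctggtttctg
Ifit1: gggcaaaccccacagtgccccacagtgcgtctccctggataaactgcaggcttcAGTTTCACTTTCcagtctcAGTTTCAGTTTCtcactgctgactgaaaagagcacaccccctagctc
Ifit3: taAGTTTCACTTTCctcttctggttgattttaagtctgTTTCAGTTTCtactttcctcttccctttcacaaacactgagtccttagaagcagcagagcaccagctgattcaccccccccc
Bst2: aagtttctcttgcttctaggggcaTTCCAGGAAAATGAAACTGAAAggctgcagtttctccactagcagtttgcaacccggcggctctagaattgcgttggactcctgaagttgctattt
Rsad2: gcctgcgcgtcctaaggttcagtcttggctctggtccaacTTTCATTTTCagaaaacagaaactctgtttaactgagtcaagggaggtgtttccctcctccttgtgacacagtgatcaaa
Ifit2: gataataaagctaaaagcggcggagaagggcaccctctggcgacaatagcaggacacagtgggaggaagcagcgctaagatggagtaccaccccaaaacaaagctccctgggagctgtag
Irf1: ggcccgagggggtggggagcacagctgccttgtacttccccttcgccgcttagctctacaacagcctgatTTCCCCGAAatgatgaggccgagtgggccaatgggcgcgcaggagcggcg
Isg15 held 3 overlapping ISRE cores in this stretch, Ifit1 and Ifit3 held 2 separate ones each, and Rsad2 held 1. Bst2 held 2 overlapping ISRE cores, and the more upstream of them also overlaps a GAS core. The stretch of Ifit2 held none of the motifs, and the stretch of Irf1 held 1 GAS core.

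FP and PBS were compared to ask how the interferon genes of splenic Tregs stood 72 h after FP. Most effectors were higher after FP, whereas the regulators were split. Of the 41 genes, 31 were higher after FP, 3 were lower and 7 did not pass the test at an adjusted p under 0.05 (edgeR quasi-likelihood test, Benjamini-Hochberg over all genes tested). Among all genes tested, 21.0% were higher and 18.5% were lower, and 39.5% were called in either direction. At least 2-fold higher were 13 of the 41, against 7.58% of all genes tested, and none was 2-fold lower, against 7.63%. All 4 FP values lay above all 3 PBS values for 30 members, where 23.2% of all genes tested did so, and below them for 3, where 23.5% did so (46.7% in either direction). The median log2 fold change was 0.73 over the 41 members and -0.05 over all genes tested.

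Split by role, 26 of 30 effectors (86.7%) and 5 of 11 regulators (45.5%) were higher after FP. None of the effectors and 3 of the regulators were lower. The effector count of 0 was the same with DESeq2 and with limma-voom, which used the same counts. At an unadjusted p under 0.05 it could not differ, because no effector had a negative log2 fold change in the main test. The median log2 fold change was 0.90 for effectors and 0.06 for regulators, a difference of medians of 0.84. At least 2-fold higher were 12 effectors and 1 regulator, Ifngr1. All 30 effectors had a positive log2 fold change, but Ifit2 and Samd9l turned negative with upper-quartile factors or library size alone. Those scalings shifted the median of all genes to -0.25 and -0.31. The share of calls that were higher was 53.2% with the trimmed mean of M values (TMM), 33.2% under upper-quartile scaling and 28.8% under library size alone. With library size alone, 20 members were higher, among them 2 regulators, beside 12.7% of all genes tested.

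**Figure D1:**
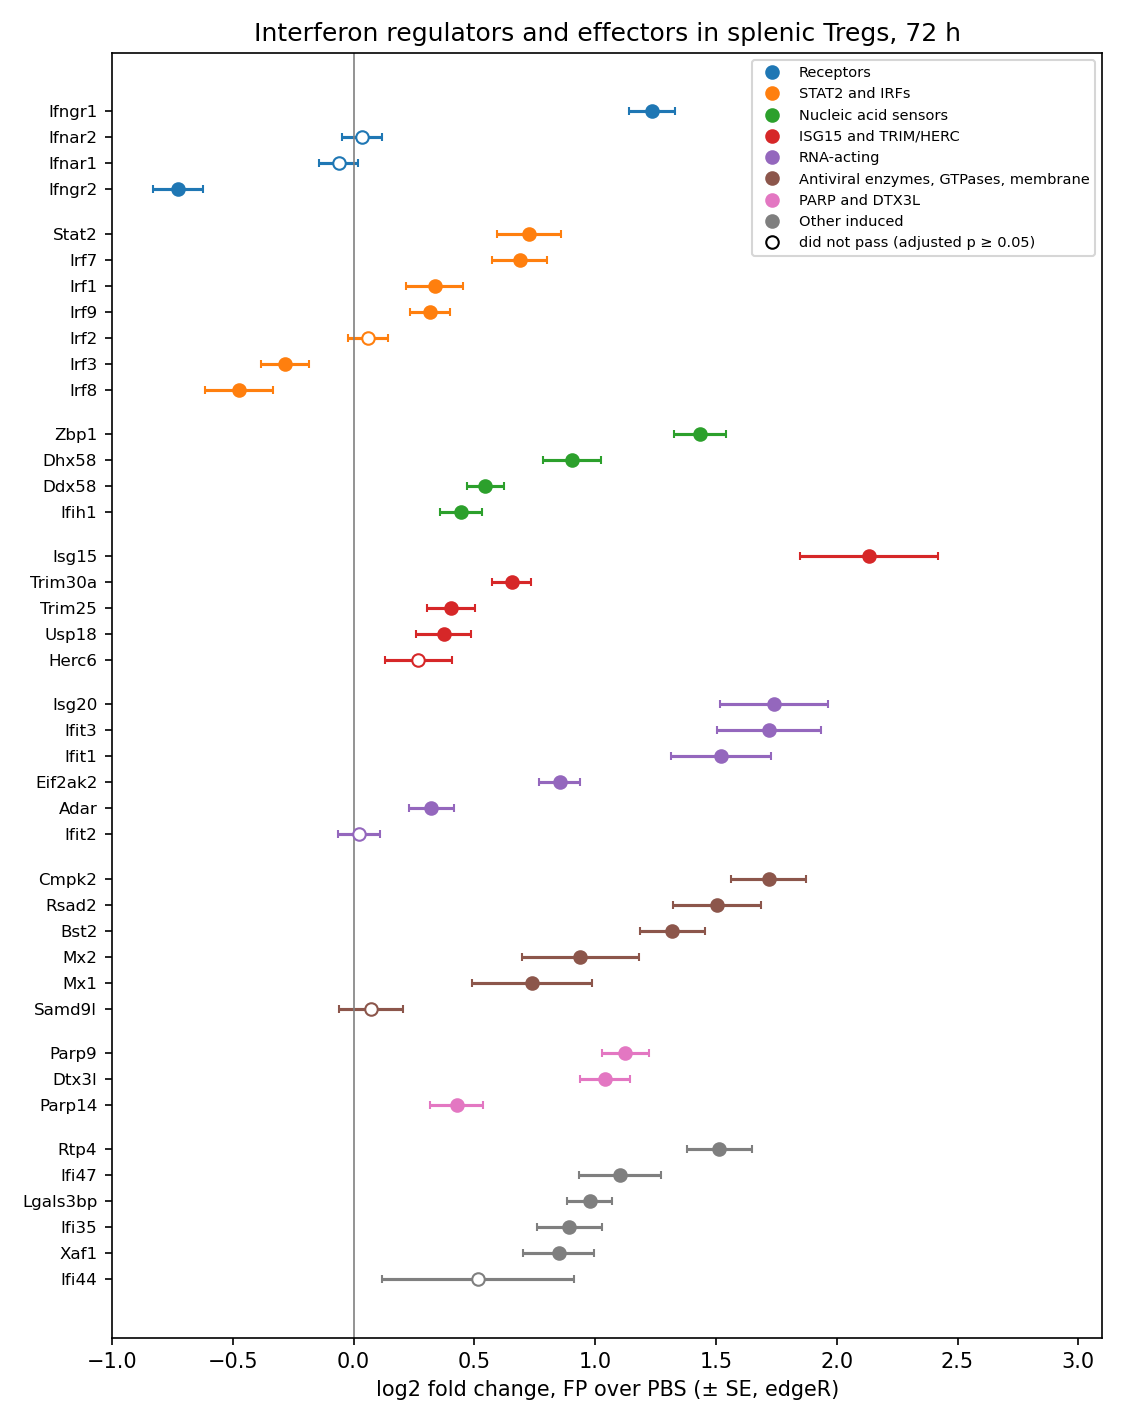
Log2 fold change of each of the 41 genes, FP over PBS, on the horizontal axis with 1 row per gene, grouped and coloured by role; bars are ± 1 SE and open circles did not pass the test. The effectors all lie to the right of 0, from 0.02 for Ifit2 to 2.13 for Isg15, and the regulators lie on both sides, from -0.73 for Ifngr2 to 1.24 for Ifngr1.

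The 4 receptor chains moved apart. Ifngr1 (ENSMUSG00000020009.12, GRCm38 chromosome 10, 19591949 to 19610229, plus strand), the ligand-binding chain of the type II receptor, measured 383, 393, 409 and 355 CPM in FP replicates 1 to 4, against 179, 154 and 158 CPM in PBS replicates 1 to 3. It rose by 1.24 on the log2 scale (adjusted p = 1.01e-05, SE 0.10), or 2.35-fold, and the lowest FP library lay well above the highest PBS library. Ifngr2 (ENSMUSG00000022965.7, chromosome 16, 91547072 to 91565623, plus strand), the chain that completes that receptor, measured 29.1, 30.0, 25.3 and 26.0 CPM in FP replicates, against 46.5, 45.6 and 45.1 CPM in PBS replicates. It fell by 0.73 on the log2 scale (adjusted p = 0.000427, SE 0.10), and the groups did not overlap. Its 3 PBS values lay close together, and the summed macrophage and monocyte markers of those libraries were 676, 1667 and 1172 CPM. The part of those markers in the fall was not tested. The pair of genes that encode the type II receptor thus went in opposite directions. Per kilobase of exon, Ifngr1 stood at 135 CPM in FP samples and 57.5 CPM in PBS samples, and Ifngr2 at 7.33 CPM in FP samples and 12.1 CPM in PBS samples.

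The type I receptor chains did not pass the test. Ifnar1 measured 224, 244, 249.5 and 244 CPM in FP replicates, against 254, 250.0 and 248 CPM in PBS replicates, a log2 fold change of -0.06 (adjusted p = 0.564, SE 0.08). It was called lower when libraries were scaled by upper quartiles (-0.26, adjusted p = 0.0323) or by library size alone (-0.32, 0.0476). Ifnar2 measured 71.4, 78.4, 71.2 and 68.7 CPM in FP replicates, against 69.7, 70.7 and 71.8 CPM in PBS replicates, a log2 fold change of 0.03 (adjusted p = 0.770, SE 0.08). The groups overlapped for both chains, and the direction of Ifnar2 turned under upper-quartile scaling, under library size alone and without FP replicate 2.

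Of the 7 transcription factors, 4 rose, 2 fell and 1 did not pass, beside 21.0% higher and 18.5% lower among all genes tested. Stat2, the STAT protein specific to type I and type III interferon signals, measured 116, 124, 166 and 143 CPM in FP replicates, against 72.6, 90.9 and 85.3 CPM in PBS replicates. It rose by 0.73 on the log2 scale (adjusted p = 0.00187, SE 0.13), a call lost with library size alone (adjusted p = 0.0513). Irf7, which drives and amplifies type I interferon transcription, measured 77.0, 73.5, 91.0 and 73.7 CPM in FP replicates, against 43.1, 52.1 and 51.6 CPM in PBS replicates, and rose by 0.69 (adjusted p = 0.00102, SE 0.11). These were the highest log2 fold changes among the transcription factors, and in both genes every FP library lay above every PBS library.

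Irf9 and Irf1 rose by less. Irf9, the DNA-binding partner of Stat2, measured 155, 163, 159 and 159 CPM in FP replicates, against 126, 138 and 118 CPM in PBS replicates, a log2 fold change of 0.32 (adjusted p = 0.0121, SE 0.08). Irf1, an early target of type II interferon, measured 421, 357, 333 and 297 CPM in FP replicates, against 290.1, 264 and 282 CPM in PBS replicates, a log2 fold change of 0.34 (adjusted p = 0.0447, SE 0.12). The lowest FP value of Irf1, in replicate 4, lay just above the highest PBS value. Irf9 lost its call under upper-quartile scaling, under library size alone and without PBS replicate 3 (adjusted p = 0.0816). Irf1 lost its call with the same scalings and without FP replicate 1 (adjusted p = 0.0649), FP replicate 2 (0.0779), FP replicate 3 (0.0610), PBS replicate 2 (0.159) or PBS replicate 3 (0.121).

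Irf8 and Irf3 fell. Irf8, a factor of myeloid, dendritic and B cells, measured 32.7, 33.5, 33.6 and 26.5 CPM in FP replicates, against 35.7, 51.3 and 44.5 CPM in PBS replicates. It fell by 0.47 on the log2 scale (adjusted p = 0.0222, SE 0.14), and FP replicate 4 was the lowest library. PBS replicates 1, 2 and 3 stood in the same order for Irf8 as for the summed macrophage and monocyte markers, where PBS replicate 1 had the lowest sum and PBS replicate 2 the highest. The FP replicates did not: FP replicate 3 had the lowest marker sum, and FP replicate 4 the lowest Irf8 value. The part of these cells in the fall of Irf8 was not tested. Markers of conventional dendritic cells were lower too, for 3 of the 3 tested, with summed levels of 11.4 to 15.5 CPM in FP libraries and 23.5 to 34.8 CPM in PBS libraries. Of plasmacytoid dendritic cell markers 3 of the 5 tested were lower, with sums of 60.0 to 76.8 CPM in FP libraries and 110.5 to 119 CPM in PBS libraries. Most of these sums came from Pacsin1, with means of 44.1 CPM in FP samples and 70.2 CPM in PBS samples, and from Ccr9, which did not pass. Siglech averaged 0.102 CPM in FP samples and 0.994 CPM in PBS samples and was not tested. Cox6a2 had no count in any FP library, and its PBS values stood in the order of the summed macrophage and monocyte markers. The part of plasmacytoid dendritic cells in the fall of Irf8 was not tested. Of B cell markers 3 of the 9 tested were lower and 1 was higher. Over all genes tested, 18.5% were lower and 21.0% were higher. The summed B cell markers ran from 31.3 to 40.6 CPM in FP libraries and from 33.8 to 57.9 CPM in PBS libraries. Irf8 lost its call without PBS replicate 2 (adjusted p = 0.128) or PBS replicate 3 (0.0762).

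Irf3, the factor that nucleic acid sensors activate to start interferon transcription, measured 67.5, 86.7, 72.3 and 77.6 CPM in FP replicates, against 89.6, 96.3 and 91.4 CPM in PBS replicates. It fell by 0.28 (adjusted p = 0.0435, SE 0.10) but lost its call in 8 of 15 alternatives, among them the test of DESeq2 (adjusted p = 0.0668) and leaving out FP replicate 1, FP replicate 3 or any PBS replicate (adjusted p = 0.0768 to 0.160). Irf2, which competes with Irf1 for the same sites, measured 150.5, 148, 169 and 148 CPM in FP replicates, against 149.8, 149 and 144 CPM in PBS replicates, a log2 fold change of 0.06 (adjusted p = 0.583, SE 0.08). FP replicate 3 alone stood apart, and the sign of the Irf2 value turned with upper-quartile factors or library size alone. Without PBS replicate 2 or without PBS replicate 3, 1 regulator was lower in place of 3, and without PBS replicate 3, 3 regulators were higher in place of 5.

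**Figure D2:**
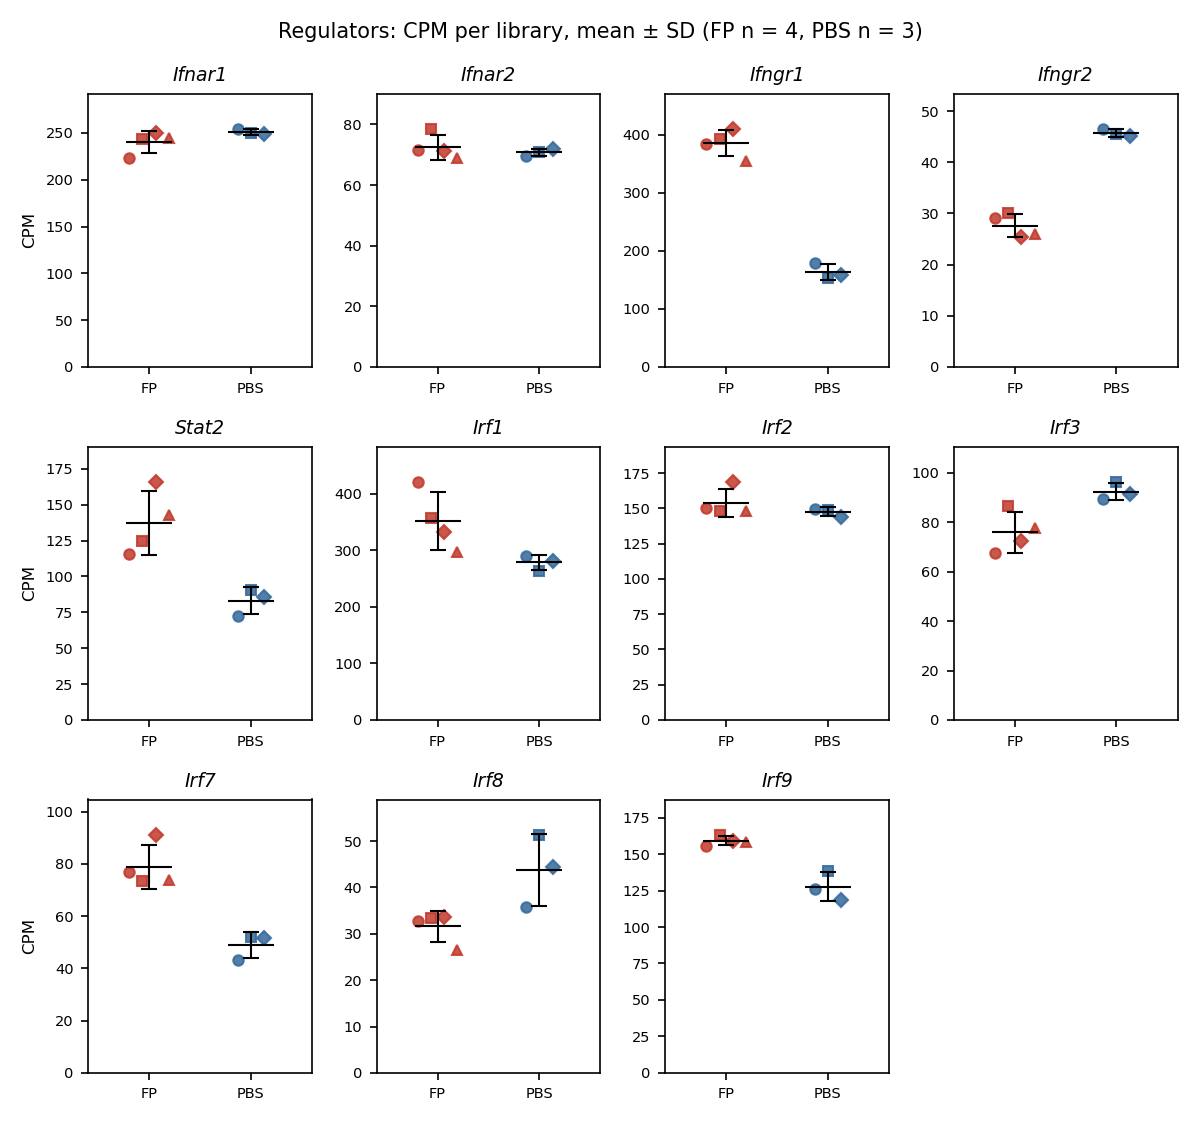
CPM (TMM-scaled, linear axes from 0) of the 11 regulators, 1 panel each, with FP replicates left of PBS replicates; points are libraries, with 1 marker shape per replicate number, and bars are means ± SD (FP n = 4, PBS n = 3). Ifngr1 averaged 385 CPM in FP libraries and 164 CPM in PBS libraries, Ifngr2 averaged 27.6 CPM in FP libraries and 45.7 CPM in PBS libraries, and the groups overlapped for Ifnar1, Ifnar2 and Irf2.

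All 4 sensors of nucleic acid rose. Zbp1 (ENSMUSG00000027514.14, chromosome 2, 173206612 to 173218923, minus strand), a sensor of left-handed nucleic acid that can trigger cell death, had the smallest p of all members. It measured 287, 271, 296 and 225 CPM in FP replicates, against 99.4, 101 and 98.7 CPM in PBS replicates, a log2 fold change of 1.43 (adjusted p = 8.07e-06, SE 0.11). The PBS values lay within a few CPM of each other, far under the lowest FP value. The 3 RIG-I-like receptors of viral RNA rose by less: Dhx58 (LGP2) by 0.90 on the log2 scale, Ddx58 (RIG-I) by 0.55 and Ifih1 (MDA5) by 0.45, with adjusted p from 0.000297 to 0.00265. Their levels were 39.7 ± 4.04, 175 ± 3.53 and 85.6 ± 5.59 CPM in FP samples (SD, n = 4) for Dhx58, Ddx58 and Ifih1, and 21.2 ± 1.34, 119.7 ± 2.94 and 62.9 ± 1.21 CPM in PBS samples (SD, n = 3) in the same order. Ifih1 lost its call under upper-quartile scaling (adjusted p = 0.0732) and under library size alone (0.243), and Ddx58 with library size alone (0.0537).

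In the ISG15 and ubiquitin group, 4 of 5 genes rose. Isg15 (ENSMUSG00000035692.6, chromosome 4, 156199424 to 156200818, minus strand), the ubiquitin-like protein attached to other proteins after interferon, had the highest log2 fold change of the 41 genes. It measured 38.6, 25.5, 28.8 and 16.1 CPM in FP replicates, against 6.88, 6.80 and 4.81 CPM in PBS replicates, a log2 fold change of 2.13 (adjusted p = 0.000369, SE 0.29) or 4.39-fold; its library values are given because of that rank, a choice made after they were seen. FP replicate 4 lay well under the other FP libraries, yet above all PBS libraries. Trim30a, a ubiquitin ligase that restrains inflammatory signals, measured 246, 230.0, 247 and 240.0 CPM in FP replicates, against 145, 156 and 158 CPM in PBS replicates, a log2 fold change of 0.66 (adjusted p = 0.000204, SE 0.08). The groups were far apart for this gene relative to their spread.

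The enzymes of this group had smaller log2 fold changes than Isg15. Usp18, which removes ISG15 from proteins and damps the type I receptor, averaged 56.8 ± 6.80 CPM in FP samples (SD, n = 4) and 43.9 ± 3.45 CPM in PBS samples (SD, n = 3), a rise of 0.37 on the log2 scale (adjusted p = 0.0258). Trim25, the ligase that helps activate RIG-I, rose by 0.40 (adjusted p = 0.00908), with 135 ± 14.0 CPM in FP samples and 102 ± 5.94 CPM in PBS samples. Herc6, the main ligase for ISG15 in mice, measured 63.0, 57.8, 76.8 and 82.8 CPM in FP replicates, against 51.2, 58.9 and 64.7 CPM in PBS replicates, a log2 fold change of 0.27 (adjusted p = 0.150, SE 0.14). The groups overlapped for Herc6, and 12.5% of its 50-base stretches also occur in another annotated gene. Usp18 and Trim25 lost their calls under upper-quartile scaling and under library size alone, Usp18 also without FP replicate 3, PBS replicate 1 or PBS replicate 2 (adjusted p = 0.0634 to 0.0853), and Trim25 without PBS replicate 3 (0.0570).

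The genes that act on RNA ranged from Isg20 and Ifit3, among the effectors with the highest log2 fold changes, to Ifit2 with the lowest. Ifit3, a protein that stabilises the binding of foreign RNA by its relatives, measured 36.8, 25.6, 38.9 and 22.1 CPM in FP replicates, against 10.4, 8.71 and 8.91 CPM in PBS replicates, a log2 fold change of 1.72 (adjusted p = 0.000216, SE 0.22). Ifit1, which binds the ends of viral RNA, measured 84.1, 55.6, 56.1 and 42.9 CPM in FP replicates, against 22.4, 19.3 and 20.5 CPM in PBS replicates, a log2 fold change of 1.52 (adjusted p = 0.000378, SE 0.21), and is shown by library because it belongs to the family of Ifit2 and Ifit3, a choice made after its values were seen. Ifit2 lies beside Ifit3 on chromosome 19 (34550694 to 34576419, plus strand). It measured 58.7, 64.4, 63.8 and 58.1 CPM in FP replicates, against 62.7, 58.6 and 59.9 CPM in PBS replicates, a log2 fold change of 0.02 (adjusted p = 0.866, SE 0.09). Of these 3 relatives, Ifit1 and Ifit3 had ISRE cores in the promoter stretches printed here, and Ifit2 had none. Each stretch was taken at the most upstream start with a window, so that of Ifit2 cannot show whether an ISRE lies elsewhere. Most of the stretches were chosen for having an ISRE. Isg20 and Cmpk2, with log2 fold changes of 1.74 and 1.72, had windows without an ISRE core. Ifih1 and Ddx58, with 0.45 and 0.55, had windows with one. A link between ISRE cores and fold change was not tested. For Ifit3, 51.2% of its 50-base stretches also occur in Ifit3b, whose own counts gave a log2 fold change of 1.70, so the 2 copies cannot be fully separated; for Ifit1, 7.13% occur in the Ifit1-like genes Ifit1bl1 and Ifit1bl2.

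Isg20, an exonuclease that degrades RNA, measured 68.6, 64.7, 57.2 and 33.9 CPM in FP replicates, against 17.7, 16.5 and 16.1 CPM in PBS replicates, a log2 fold change of 1.74 (adjusted p = 0.000285, SE 0.22). As with Isg15, FP replicate 4 was the lowest FP library and still well above every PBS library. Eif2ak2 (PKR), the kinase that halts translation when it binds duplex RNA, measured 116, 108, 119 and 116 CPM in FP replicates, against 61.1, 61.3 and 68.3 CPM in PBS replicates, a log2 fold change of 0.85 (adjusted p = 5.31e-05, SE 0.08). Its FP libraries lay close together, without the low value in FP replicate 4. Adar, which edits adenosine to inosine in duplex RNA, averaged 240.1 ± 20.9 CPM in FP samples (SD, n = 4) and 192 ± 5.90 CPM in PBS samples (SD, n = 3), a rise of 0.32 (adjusted p = 0.0179). That call ended under upper-quartile scaling, under library size alone, and without PBS replicate 2 (adjusted p = 0.0517) or PBS replicate 3 (0.0833).

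Among the antiviral enzymes, GTPases and membrane proteins, 5 of 6 rose. The adjacent genes Cmpk2 and Rsad2 on chromosome 12 encode a mitochondrial nucleotide kinase and viperin, which makes a chain-terminating nucleotide. Cmpk2 measured 31.9, 37.1, 40.7 and 31.7 CPM in FP replicates, against 12.2, 8.92 and 11.2 CPM in PBS replicates, a log2 fold change of 1.72 (adjusted p = 2.56e-05, SE 0.15). Rsad2 measured 13.8, 13.6, 18.2 and 15.7 CPM in FP replicates, against 4.58, 5.27 and 6.38 CPM in PBS replicates, a log2 fold change of 1.50 (adjusted p = 0.000176, SE 0.18). The neighbours rose by like amounts, and FP replicate 3 was the highest library for both. Bst2 (tetherin), which holds budding virus at the cell surface, measured 42.0, 39.3, 39.8 and 36.6 CPM in FP replicates, against 18.5, 15.7 and 13.2 CPM in PBS replicates, a log2 fold change of 1.32 (adjusted p = 6.24e-05, SE 0.13).

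Mx1 and Mx2 encode antiviral GTPases, of which Mx1 is defective in many inbred mouse strains, C57BL/6 among them. Both were low: Mx1 averaged 17.4 ± 4.92 CPM in FP samples (SD, n = 4) and 10.5 ± 2.57 CPM in PBS samples (SD, n = 3), and Mx2 averaged 11.9 ± 2.45 CPM in FP samples and 6.20 ± 1.81 CPM in PBS samples. They rose by 0.74 (adjusted p = 0.0381) for Mx1 and 0.94 (adjusted p = 0.0112) for Mx2 on the log2 scale. The groups overlapped for Mx1, whose call ended under upper-quartile scaling, under library size alone and when any single library other than FP replicate 1 was left out (adjusted p = 0.0516 to 0.114). The call of Mx2 ended with library size alone (adjusted p = 0.0623). Samd9l, a restraint on growth and translation, measured 354, 307, 239 and 338 CPM in FP replicates, against 313, 278 and 291 CPM in PBS replicates, a log2 fold change of 0.07 (adjusted p = 0.686, SE 0.13). FP replicate 3 was its lowest library, whereas FP replicate 3 was the highest FP library for 16 of the 30 effectors.

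**Figure D3:**
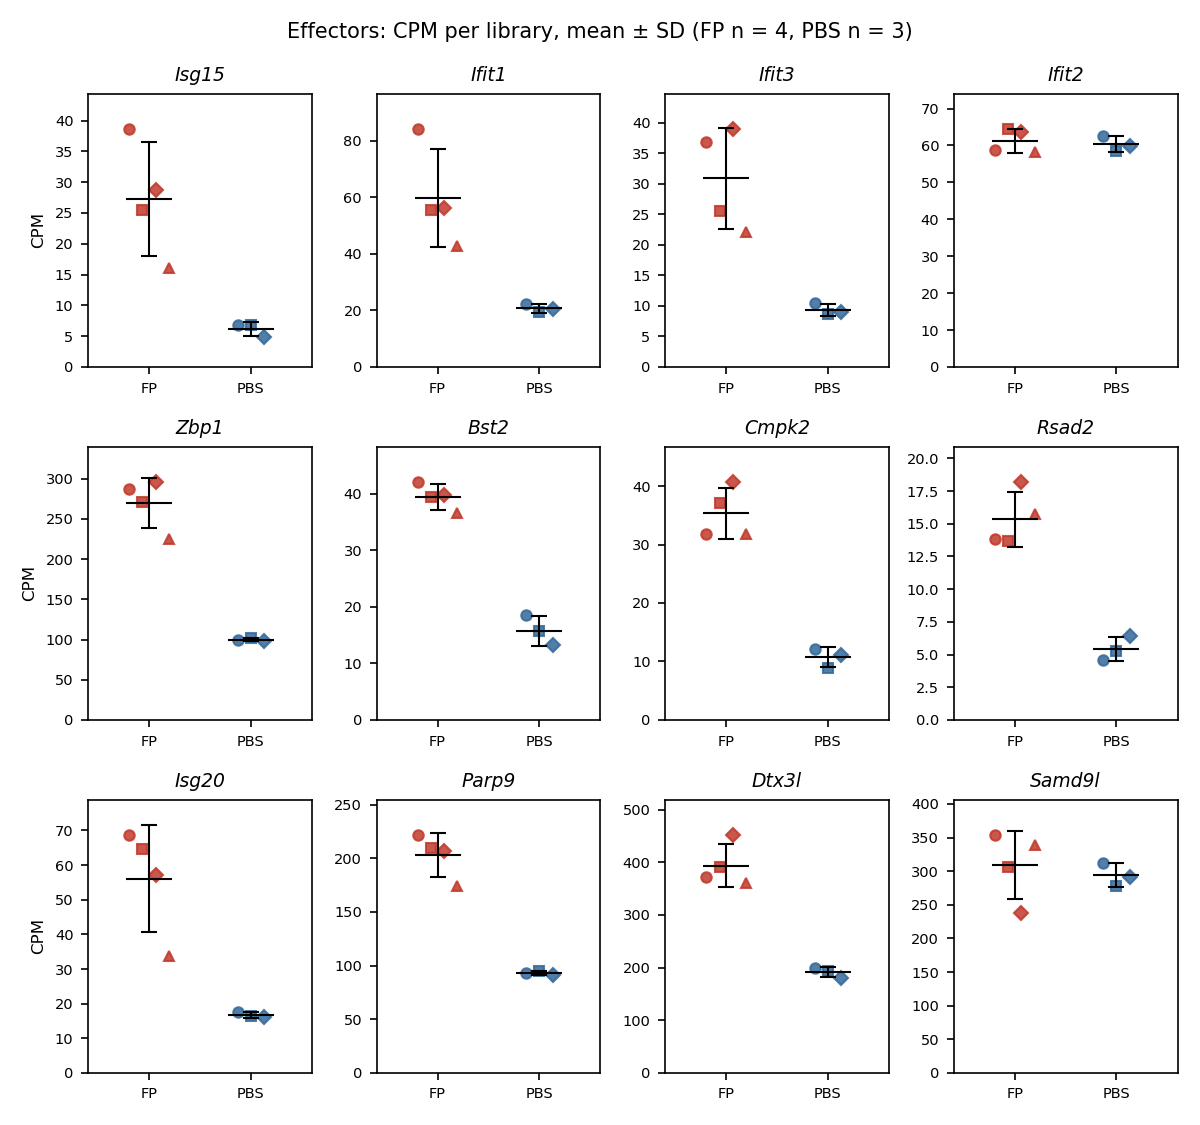
CPM (TMM-scaled, linear axes from 0) of 12 effectors of contrasting response, 1 panel each, with FP replicates left of PBS replicates; points are libraries, with 1 marker shape per replicate number, and bars are means ± SD (FP n = 4, PBS n = 3). The FP and PBS points overlap for Ifit2 and Samd9l and are apart in the other panels. In those panels the triangle, FP replicate 4, is the lowest FP point except for Rsad2, by a small margin for Cmpk2.

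The PARP and DTX3L genes all rose. Parp9 and its partner Dtx3l, which together add ubiquitin and ADP-ribose to proteins at sites of DNA damage and in antiviral responses, lie head to head on chromosome 16. Parp9 measured 222, 209, 207 and 174 CPM in FP replicates, against 93.2, 94.7 and 91.1 CPM in PBS replicates, a log2 fold change of 1.13 (adjusted p = 2.15e-05, SE 0.10). Dtx3l measured 371, 391, 451 and 361 CPM in FP replicates, against 199, 194 and 180.3 CPM in PBS replicates, a log2 fold change of 1.04 (adjusted p = 4.97e-05, SE 0.10). The partners thus rose by close to the same fold; their exons overlap by 458 bases on opposite strands, so reads there may count for either if strand was not used. Parp14, a mono-ADP-ribosyltransferase encoded nearby, averaged 496 ± 62.2 CPM in FP samples (SD, n = 4) and 369 ± 16.1 CPM in PBS samples (SD, n = 3), a rise of 0.43 (adjusted p = 0.0117). Its call ended under upper-quartile scaling, under library size alone and without PBS replicate 3 (adjusted p = 0.0502).

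Of the 6 other induced genes, 5 rose. Rtp4, a chaperone of receptors that also binds viral RNA, measured 67.1, 50.5, 58.1 and 51.9 CPM in FP replicates, against 20.5, 21.7 and 17.5 CPM in PBS replicates, a log2 fold change of 1.51 (adjusted p = 2.41e-05, SE 0.13). Lgals3bp, a secreted glycoprotein that binds galectins, measured 139, 139, 155 and 134 CPM in FP replicates, against 70.0, 78.9 and 66.9 CPM in PBS replicates, a log2 fold change of 0.98 (adjusted p = 3.96e-05, SE 0.09). The lowest FP library lay above the highest PBS library by a wide margin for both genes. Ifi47, an immunity-related GTPase, rose by 1.10 (adjusted p = 0.000749), Ifi35, a partner of Nmi, by 0.89 (adjusted p = 0.000619) and Xaf1, which opposes an inhibitor of cell death, by 0.85 (adjusted p = 0.00136). Ifi44 was the scarcest member, with 3.22, 1.33, 2.38 and 3.99 CPM in FP replicates, against 1.67, 1.32 and 2.80 CPM in PBS replicates, a log2 fold change of 0.52 (adjusted p = 0.326, SE 0.40). Its groups overlapped.

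The size of the rise differed between the roles. Median log2 fold changes were 1.19 for the RNA-acting genes, 1.13 for the antiviral enzymes, GTPases and membrane proteins, 1.04 for the PARP and DTX3L genes, 0.93 for the other induced genes, 0.72 for the sensors and 0.40 for the ISG15 and ubiquitin group. The transcription factors had a median of 0.32 and the receptors one of -0.01. These medians are over 3 to 7 genes each and no difference between roles was tested. The counts given for each role stand beside 21.0% higher and 18.5% lower among all genes tested.

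The 4 FP libraries did not carry the effectors alike, and they also stood further apart than the PBS libraries over all genes. The chi-square per degree of freedom between the counts of 2 libraries was 12 to 61.1 among FP pairs, highest between FP replicates 1 and 4, and 3.22 to 8.13 among PBS pairs. FP replicate 3 held the highest FP value for 16 of 30 effectors and FP replicate 1 for 10, whereas FP replicate 4 held the lowest value for 14 and FP replicate 2 for 10. The log2 ratio of FP replicate 1 to FP replicate 4 was 1.26 for Isg15, 1.02 for Isg20, 0.97 for Ifit1, 0.82 for Ifi47 and 0.73 for Ifit3, but -0.83 for Mx1 and -0.40 for Herc6. Isg15, Isg20 and Ifit1 were thus at least 1.96-fold apart between libraries of the same group. The coefficient of variation in FP samples was 34.1% for Isg15, 27.7% for Isg20 and 29.1% for Ifit1, against 4.08% for Eif2ak2, 3.28% for Trim30a and 2.02% for Ddx58. The fold changes of Isg15, Isg20 and Ifit1 therefore rest on wider FP spreads than those of Eif2ak2 or Trim30a. Steep genes were not all alike in this: the coefficient was 26.7% for Ifit3, but 12.3% for Cmpk2, 13.8% for Rsad2 and 5.69% for Bst2. Mx1, with a log2 fold change of 0.74, had 28.2%. Spearman's correlation of the ratio of FP replicate 1 to FP replicate 4 with the log2 fold change was 0.68 over the 30 effectors and 0.45 over 15916 genes of all kinds, and both measures hold the same 2 FP libraries.

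**Figure D4:**
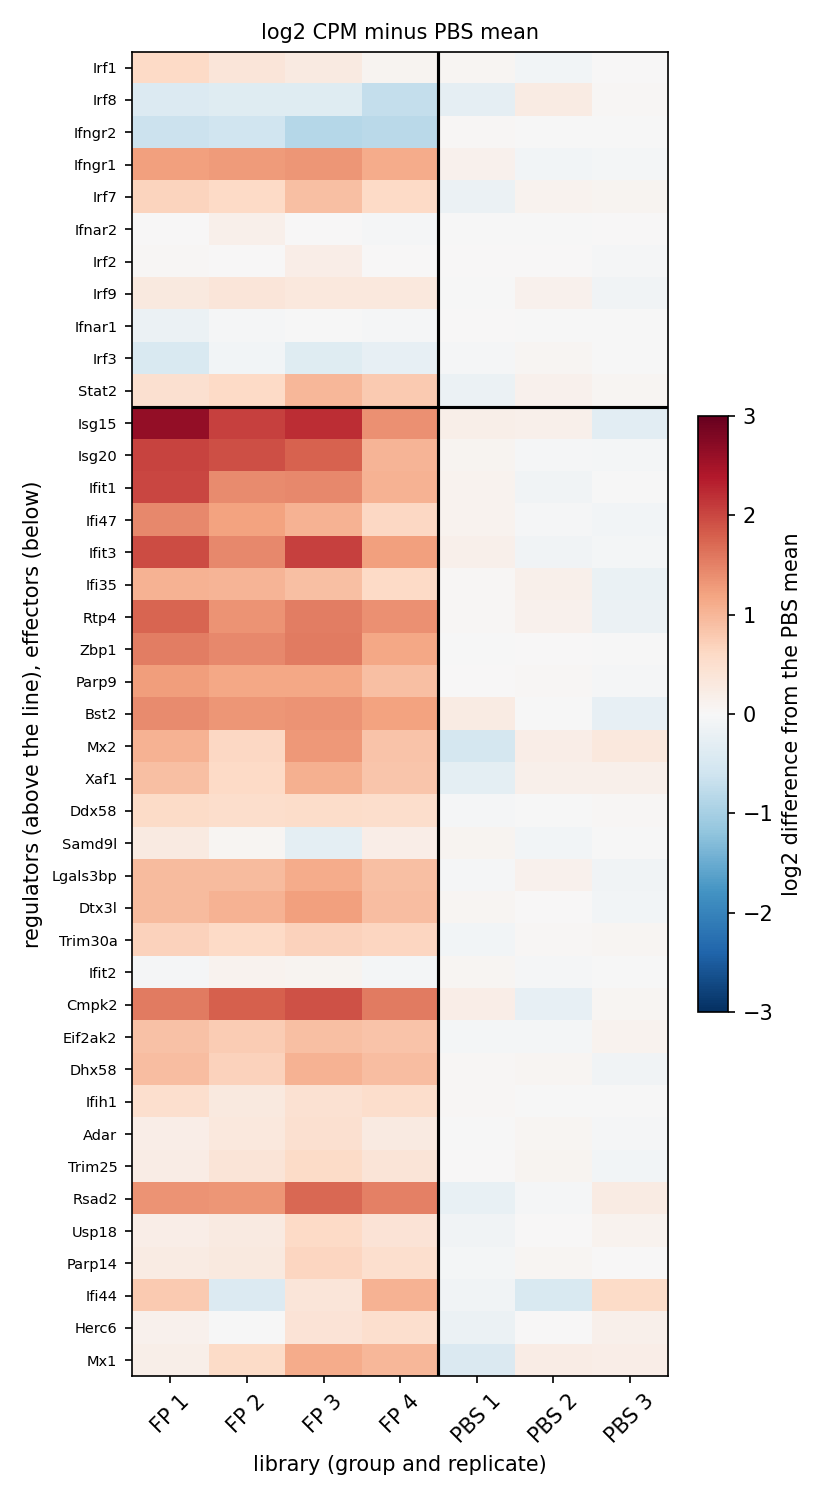
Colour map of the 41 genes (rows, regulators above the line and effectors under it, each ordered by the ratio of FP replicate 1 to FP replicate 4) in the 7 libraries (columns, FP replicates left of PBS replicates); colour is log2 CPM minus the mean log2 CPM of the PBS libraries for that gene. FP replicate 4 is paler than FP replicate 1 for Isg15, Ifit1, Isg20 and Ifi47 and deeper for Mx1 and Herc6.

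Both the fold changes and these library differences followed exon length among the effectors. Spearman's correlation between summed exon length and log2 fold change was -0.66 over the 30 effectors, -0.16 over the 11 regulators and -0.03 over 15916 genes tested with an exon length. The 10 shortest effectors, of 756 to 2847 bases, had a median log2 fold change of 1.42, and all 10 rose, 7 of them at least 2-fold. The 10 of middle length, of 3272 to 4872 bases, had a median of 0.92, with 9 higher and 4 at least 2-fold higher. The 10 longest, of 5113 to 9306 bases, had a median of 0.44, with 7 higher and 1 at least 2-fold higher. Genes of all kinds in the same length ranges had medians of -0.02, -0.00 and -0.04. The same rank correlation between exon length and the log2 ratio of FP replicate 1 to FP replicate 4 was -0.69 over the effectors and -0.09 over all genes. These are correlations across genes that share the same libraries, so they are descriptions, and the part of length in the fold changes was not tested. Usp18 and Dtx3l stood off the trend: Usp18, of 2790 bases, rose by 0.37 and Dtx3l, of 5725 bases, by 1.04.

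**Figure D5:**
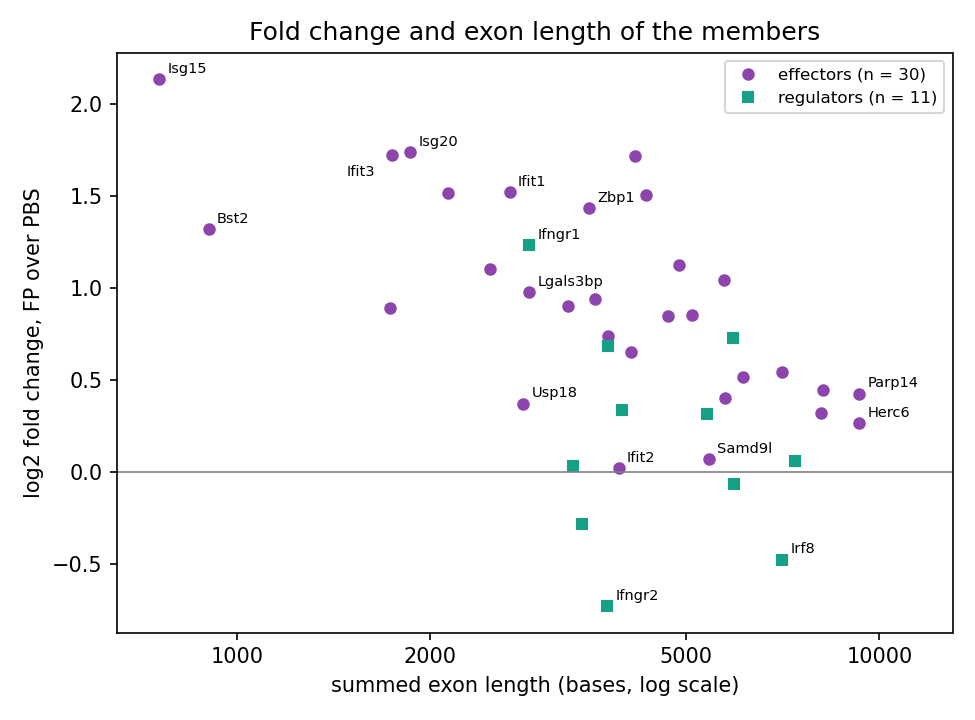
Log2 fold change, FP over PBS, against summed exon length in bases (log axis), with 1 point per gene; circles are the 30 effectors and squares the 11 regulators. The effectors run from Isg15 (756 bases, 2.13) at the upper left to Parp14 (9306 bases, 0.43) and Herc6 (9292 bases, 0.27) at the lower right, whereas the squares are scattered (rank correlation of -0.16).

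Levels between genes were compared per kilobase of exon. In FP samples the highest were Ifngr1 with 135 CPM per kilobase, Ifi47 with 131, Irf1 with 88.5, Zbp1 with 76.4 and Dtx3l with 68.8. In PBS samples they were Irf1 with 70.1 CPM per kilobase, Ifi47 with 60.8, Ifngr1 with 57.5, Samd9l with 54.2 and Ifnar1 with 42.2. Samd9l and Ifnar1 ranked 7 and 12 among the 41 in FP samples, and 4 and 5 in PBS samples. The steepest effectors were not abundant in PBS samples: Isg15 stood at 8.15 CPM per kilobase there, Isg20 at 9.01, Ifit3 at 5.35, Cmpk2 at 2.58 and Rsad2 at 1.25. The median level of the effectors was 24.1 CPM per kilobase in FP samples and 13.9 in PBS samples, whereas that of the regulators was 22.1 in FP samples and 21.2 in PBS samples. Effectors thus stood slightly above regulators in the median in FP samples and under them in PBS samples. Spearman's correlation between the PBS level per kilobase and the log2 fold change was -0.22 over the 30 effectors.

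Other genes of the interferon pathway were followed as a list of 89, of which 78 could be tested, and 43 were higher, 9 lower and 26 did not pass (21.0% higher and 18.5% lower among all genes tested). Of 11 interferon genes, 7 had no count in any of the 7 libraries. The only one with enough reads for a test was Ifng, type II interferon, with 4.29, 5.67, 2.19 and 2.63 CPM in FP replicates, against 2.91, 1.61 and 1.49 CPM in PBS replicates. Its groups overlapped, and its log2 fold change of 0.88 did not pass (adjusted p = 0.0951, SE 0.39).

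Of the 10 kinases, STATs and inhibitors listed, 5 rose and none fell, against 21.0% and 18.5% of all genes tested. The inhibitors Socs1, Socs3 and Ptpn2 rose, whereas Pias1 (log2 fold change 0.02, adjusted p = 0.837) and Ptpn6 (-0.11, adjusted p = 0.434) did not pass. Socs1, which blocks the receptor-bound kinases, measured 150.4, 145, 125 and 138 CPM in FP replicates, against 58.3, 53.4 and 47.5 CPM in PBS replicates, a log2 fold change of 1.40 (adjusted p = 7.59e-06, SE 0.10). Socs3, its relative, measured 290.4, 335, 321 and 223 CPM in FP replicates, against 118, 101 and 121 CPM in PBS replicates, a log2 fold change of 1.37 (adjusted p = 7.25e-05, SE 0.14). Neither gene's groups overlapped, and both are also targets of interleukin-2 signalling. Ptpn2, a phosphatase that acts on the kinases, rose by 0.44 (adjusted p = 0.0347), and the kinases Jak1, Jak2 and Tyk2 did not pass.

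Among the other IRF genes and IRF-binding genes, 1 of 6 was higher and 3 were lower, against 21.0% and 18.5% of all genes tested. Irf2bp2, a corepressor that binds Irf2, measured 116, 124, 113 and 124 CPM in FP replicates, against 168, 155 and 151 CPM in PBS replicates, and fell by 0.41 (adjusted p = 0.00307, SE 0.08). Of 11 receptors, adaptors and kinases of nucleic acid sensing, 3 were higher and 4 lower, also beside 21.0% and 18.5% of all genes tested. Mb21d1, the DNA sensor cGAS, measured 22.4, 22.3, 25.9 and 21.5 CPM in FP replicates, against 7.23, 6.07 and 6.12 CPM in PBS replicates, and rose by 1.83 (adjusted p = 1.18e-05, SE 0.14). Myd88, the adaptor of most Toll-like receptors, measured 55.9, 76.6, 60.3 and 53.1 CPM in FP replicates, against 40.8, 35.0 and 32.9 CPM in PBS replicates, and rose by 0.76 (adjusted p = 0.00206, SE 0.14). Every FP library lay above every PBS library for both. The 4 that were lower were Tlr9 (log2 fold change -1.86), Ikbke (-0.58), Tlr7 (-0.48) and Traf3 (-0.36), with adjusted p from 0.00247 to 0.0267, and for each of them every FP library lay under every PBS library.

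Most tested genes of the OAS, GBP, IRG and IFITM families that were listed apart from the 41 were also higher. Of 7 OAS genes tested 5 were higher, and of 13 GBP and IRG genes 11 were higher, with none lower in either family. Beside these counts and those that follow, 21.0% of all genes tested were higher and 18.5% lower. Oas3, which makes the second messenger that activates RNase L, measured 135, 129, 165 and 147 CPM in FP replicates, against 25.4, 27.0 and 23.6 CPM in PBS replicates, a log2 fold change of 2.51 (adjusted p = 1.15e-06, SE 0.11). Oas1a rose by 1.52, the immunity-related GTPase gene Iigp1 by 1.55 and the guanylate-binding protein gene Gbp7 by 1.24, with adjusted p from 4.83e-06 to 0.000119. Of 4 IFITM genes 3 were higher and 1 lower. Ifitm1 measured 15.98, 22.4, 15.99 and 12.7 CPM in FP replicates, against 0.0882, 0.219 and 0 CPM in PBS replicates, and none of the PBS libraries held more than 3 counts of it. Of 26 further interferon-stimulated genes, 15 were higher and 1 lower. They include Ube2l6, the conjugating enzyme for ISG15, which rose by 1.74 (adjusted p = 5.08e-05) with 46.9, 35.4, 34.4 and 30.5 CPM in FP replicates, against 11.8, 9.44 and 11.7 CPM in PBS replicates, and Psmb9, an immunoproteasome subunit, which rose by 0.91 (adjusted p = 4.82e-05).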

How the data were processed

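RNA of sorted splenic Tregs was sequenced in 4 FP and 3 PBS samples. The authors deposited raw counts, 1 value per gene and library. Per the series' design text and the submitters' processing notes, the authors mapped reads to GRCm38 with STAR 2.5.0b, counted them on GENCODE M13 genes with featureCounts 1.5.0 and called genes with DESeq2. The strand setting and the handling of reads that map to several places are not given in the sources used here. Symbols, positions and exon lengths came from GENCODE M21 on GRCm38 (50376 of 51138 identifiers had a symbol). Of the 41 genes, 12 overlap exons of another counted gene, among them Irf1, Irf3, Irf7, Irf9, Adar, Ifi47, Parp9 and Dtx3l, so their counts are less certain.

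FP was set against PBS in edgeR 4.0.16 under R 4.3.3 (filterByExpr, TMM factors, robust quasi-likelihood test, Benjamini-Hochberg over 15954 genes, threshold 0.05). CPM use TMM-scaled library sizes. The SE of a log2 fold change was taken from the F statistic. Alternatives were other scalings, filters, DESeq2 1.42.0, limma-voom (limma 3.58.1), a replicate block, leaving out each library, another split of regulators and effectors, and leaving out overlapping genes. The script was tested on simulated data. Promoter windows came from RefSeq tables of GRCm38.p6.

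All 41 genes are named. Library values are given for regulators, for the 12 effectors with the smallest p, for effectors that fell or did not pass, and for up to 2 genes per pathway role, except 1 gene not reported here. The members, lists and this rule were chosen with earlier results of these data known.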

Additional observations from a re-analysis of the deposited data

Results flagged for a closer look

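In 2 of the 41 genes, 1 FP library stood far from the other 3, by the gap to its nearest neighbour as a share of the range of the 4 FP values; both shares passed the limit of Dixon's test for 4 values. For Irf2 the share was 0.890, with FP replicate 3 the highest at 169 CPM and the others at 148 to 150.5 CPM. For Irf8 it was 0.889, with FP replicate 4 the lowest at 26.5 CPM and the others at 32.7 to 33.6 CPM. Chance flags about 1 in 20 groups with this limit, and 41 genes were screened.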

How the results depend on the processing

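Each of the 41 genes was recomputed under 15 alternatives, and of the 615 values 555 kept their direction and their side of the threshold, 48 lost a call, 2 gained one (Ifnar1) and 10 changed sign. Of the 31 genes higher after FP, 20 kept their call under all 15. With upper-quartile factors 4823 genes of all tested were lower, 3 regulators were higher, and the medians were -0.14 for regulators and 0.69 for effectors. With library size alone 2032 genes were higher and 5033 lower, 20 members and 2 regulators were higher, and the medians were -0.20 and 0.63. The difference of the medians stayed between 0.83 and 0.84 under both scalings. A change of scaling shifts every gene by nearly the same amount, so this difference could hardly change and is no check. Under these 2 scalings, in the same order, the sign turned for Ifnar2 (-0.17 and -0.24), Irf2 (-0.14 and -0.20), Ifit2 (-0.18 and -0.25) and Samd9l (-0.13 and -0.20), and without FP replicate 2 for Ifnar2 (-0.0048) and Ifit2 (-0.0029); over the libraries left out in turn, Ifnar2 ran from -0.0048 to 0.058 and Ifit2 from -0.0029 to 0.074. With the sensors, Usp18, Trim25 and Trim30a counted as regulators, 12 of the regulators were higher, their median was 0.39 and the difference of medians was 0.59. Leaving out overlapping members removes Irf1, Irf7 and Irf9, which were higher, and Irf3, which was lower. The 2 regulators then higher were Ifngr1 and Stat2. Other than where the alternative itself removes genes or samples, the cause was not tested.

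Leaving out each library in turn gave 4088 to 7278 genes called, 2314 to 3888 of them higher and 1774 to 3390 lower, where the low ends came without PBS replicate 3 (1869 lower without PBS replicate 2). Members ran from 25 to 30 higher and from 1 to 3 lower, regulators from 3 to 5 higher and from 1 to 3 lower, and effectors from 22 to 26 higher with 0 lower. Of all genes tested in these fits, 14.3% to 24.7% were higher and 11% to 21.5% lower.

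With the replicate number as a block, 7871 genes of all tested were called, 4122 higher and 3749 lower, and the counts of members stayed at 31 higher and 3 lower. Samples with the same number correlated at 0.199, 0.0764 and 0.0988, all positive but not all above 0.1. With so few libraries these correlations cannot show whether the numbers pair the samples, and the labels name no pairing. The column headers of the count table number the samples otherwise, and no number there is shared between FP and PBS. The block thus rests on the replicate numbers of the sample titles alone. The main values are unblocked. Not every library correlated best with its own number: PBS replicate 3 did so with FP replicate 4 (0.380). The scarcest member, Ifi44, rested on 15 to 56 counts per library in FP samples and 18 to 32 in PBS samples.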
